A study of Sus scrofa with 6 samples.

Results

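INHBA, FST and TGFBR3 are 3 genes of the activin system, and their transcripts were measured by microarray in pig oocytes before and after maturation in culture. The genes were chosen by symbol, as the probes whose single gene symbol is INHBA, FST or TGFBR3, and each had 1 probe (15251591, 15242841 and 15282229). They are 3 of 9828 named genes, and 3 of 12258 probes on the arrays. They were picked because all of them had lower values after maturation in an earlier look at the same arrays. Their change after maturation is therefore given as a description, with no test.

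The study asked how transcript levels differ between porcine oocytes before and after in vitro maturation, with 3 arrays in each group. Each array held total RNA from a pool of 50 grade I oocytes of pubertal crossbred Landrace gilts, amplified from 100 ng in 2 rounds. The group called here before maturation carries the words in vivo in its titles, and its descriptions place it ahead of the culture. The group after maturation came from cumulus-oocyte complexes, oocytes still wrapped in their somatic cumulus cells, cultured for 44 h at 38 °C under 5% CO2. The medium was TCM-199 with bicarbonate, pyruvate, albumin, cysteine, 10% porcine follicular fluid, 2.5 IU/ml hCG and 2.5 IU/ml eCG. Only the matured pools had been in culture, so maturation and culture cannot be told apart. A dye test for sorting oocytes is mentioned in the design text, and no sample label assigns it.

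Activins are dimers of inhibin beta subunits, and INHBA encodes the beta A subunit, the building block of activin A. Activin binds type II receptors (ACVR2A, ACVR2B), which recruit the type I receptor ACVR1B and lead to phosphorylation of SMAD2 and SMAD3, which act in the nucleus with SMAD4. FST encodes follistatin, a secreted protein that wraps around activin and keeps it from its receptors. TGFBR3 encodes betaglycan, a co-receptor that presents TGF-beta 2 to its receptors and lets inhibin compete with activin for the type II receptors. In the ovary these genes are known mainly from granulosa and cumulus cells, where FSH and LH act on them, and activin and follistatin are studied for their effect on oocyte competence.

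The level of all 3 genes was lower after maturation on every array. The measured level of INHBA was 4.14-fold lower, that of FST 4.45-fold and that of TGFBR3 5.09-fold, and no array of one group reached the range of the other. All levels below are log2 values made by the authors with RMA, so a difference of 1 is a 2-fold change. A level of one gene cannot be set against that of another, because probes differ in how strongly they bind.

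INHBA, the ligand subunit, had log2 levels of 10.18, 10.17 and 10.49 before maturation and 8.37, 8.24 and 8.07 after it (replicates 1, 2 and 3). The lowest array before maturation lay 1.80 above the highest array after it, while the arrays within a group spanned 0.32 and 0.29. The group means were 10.28 ± 0.18 and 8.23 ± 0.15 (SD, n = 3), a difference of -2.05 with a standard error of 0.12. The gene was bright in both groups, at percentile 96.3 of the probes before maturation and 79.2 after it.

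FST, the activin antagonist, had log2 levels of 9.80, 10.12 and 10.42 before maturation and 8.08, 7.86 and 7.94 after it. The arrays before maturation were spread over 0.62, those after it over 0.22, and a gap of 1.72 separated the groups. The means were 10.11 ± 0.31 and 7.96 ± 0.11 (SD, n = 3), a difference of -2.15 with a standard error of 0.16. Its signal went from percentile 95.5 of the probes to 76.3.

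TGFBR3, the co-receptor, had log2 levels of 7.86, 7.26 and 7.53 before maturation and 4.996, 5.16 and 5.46 after it. Again the groups were apart, by 1.81, with spans of 0.59 before and 0.46 after maturation. The means were 7.55 ± 0.30 and 5.20 ± 0.23 (SD, n = 3), a difference of -2.35 with a standard error of 0.17. After maturation TGFBR3 lay between 0.62 and 1.13 above the lower quartile of its arrays and below their medians. Background was not assessed, so the measured fold of TGFBR3 may be too small.

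**Figure D1:**
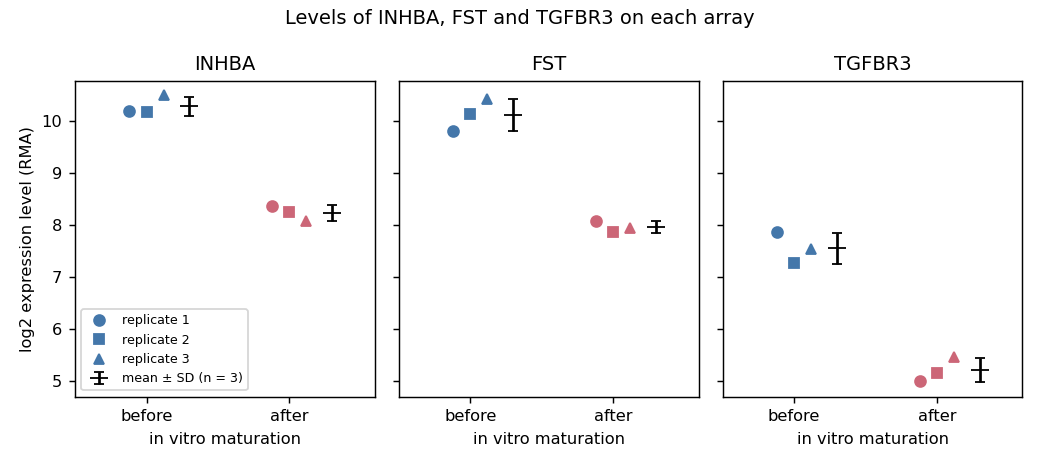
Log2 expression level (RMA) of INHBA, FST and TGFBR3 on each of the 6 arrays, before (blue) and after (red) in vitro maturation, with symbols for the replicate number and black bars for mean ± SD (n = 3). In each panel the 3 arrays after maturation lie at least 1.72 below the lowest array before it.

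Decreases of this size were rare on the arrays. Of all probes 3.3% were at least 2-fold lower after maturation and 0.359% at least 2-fold higher, and the median probe differed by 0.08. The ranks of the decreases among the 12258 probes were 57 for TGFBR3, 72 for FST and 90 for INHBA. Arrays after maturation lay wholly below those before it for 14.4% of probes, and wholly above them for 21.7%. These shares describe the contrast by which the genes were chosen, so nothing is read from them about the genes.

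The size of the decrease depended on how the arrays were scaled. On a scale that sets the median of 41 ribosomal protein genes equal on all arrays (the ribosomal scale) the differences were -1.30 for INHBA, -1.40 for FST and -1.59 for TGFBR3, and the median of all probes moved from 0.08 to 0.84. Relative to the median probe the 3 genes stood at -2.13, -2.23 and -2.43 on either scale, by construction, because the ribosomal scale adds the same amount to every difference. That amount is the fall of the ribosomal median itself. On the deposited scale it was 8.397, 8.512 and 8.6996 before maturation and 7.736, 7.607 and 7.9995 after it (replicates 1, 2 and 3). A gene whose difference turns from negative to positive on the ribosomal scale therefore fell less than the ribosomal median. Whether the ribosomal protein genes are a steady reference here was not tested. On the ribosomal scale 87.4% of all probes were called higher and 2.50% lower, so counts on it are read against those shares. For the genes named here, the limma adjusted p on it followed the size of the difference and not the gene's own spread. CTGF (-0.68, standard error 0.40 on the deposited scale) had 0.00165 there, and SMAD4 (-0.69, standard error 0.14) had 0.00146. Calls on the ribosomal scale therefore tell nothing of how the arrays of a gene varied. Under the 4 scalings tried the direction was downward for each of the 3 genes.

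Within the groups INHBA and FST varied together more than either did with TGFBR3. Before maturation replicate 3 was the highest array for INHBA and for FST, by 0.21 and 0.31 over the group mean. TGFBR3 was highest in replicate 1 instead (0.31 over its mean), the array in which FST was lowest (-0.31). After maturation replicate 1 was highest for INHBA and FST (0.14 and 0.12), and lowest for TGFBR3 (-0.21). With 3 arrays in a group this is a description of these pools only.

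Arrays of equal number were also subtracted from each other. INHBA differed by -1.81, -1.93 and -2.41 in replicates 1, 2 and 3, and FST by -1.72, -2.26 and -2.48. TGFBR3 differed by -2.86, -2.11 and -2.07. The pools of number 1 had the smallest decrease of INHBA and FST and the largest of TGFBR3. All 9 of these differences were negative, as they would be for any matching of arrays, because the groups did not overlap. The labels number the pools and do not say that equal numbers belong together.

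**Figure D2:**
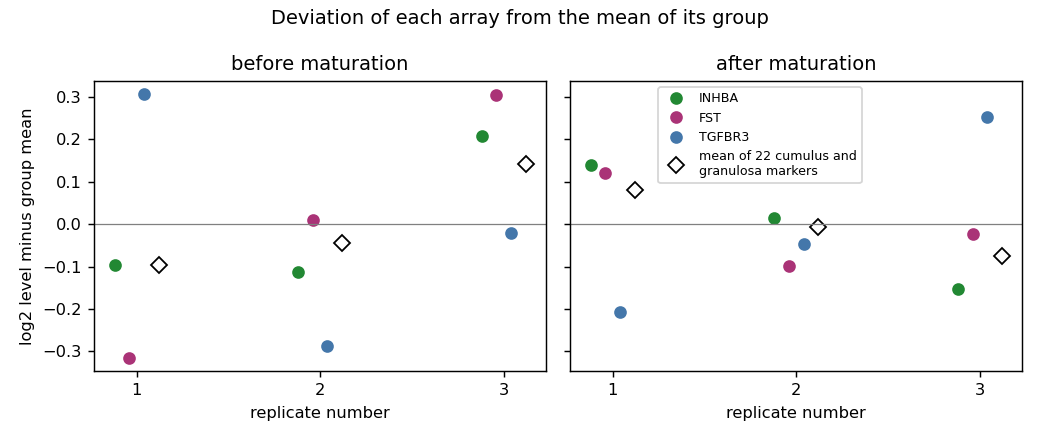
Deviation of each array from the mean of its group (log2) for INHBA, FST and TGFBR3, and, as open diamonds, for the mean level of 22 cumulus and granulosa cell markers. INHBA and FST were highest in replicate 3 before maturation and replicate 1 after it, as was the marker mean, whereas TGFBR3 was highest in replicate 1 before and replicate 3 after it.

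The same values were used to set each profile over the 6 arrays, centred on its own mean, against all other named genes. The likeness of INHBA and FST appeared in this form too. Of 9827 genes INHBA was the nearest to FST, with a root mean square distance of 0.14 on the log2 scale, where the median gene lay 1.14 away. From INHBA, FST ranked 8 of 9827. TGFBR3 lay farther off, at distances of 0.33 from INHBA and 0.37 from FST, which placed it at ranks 81 and 89. INHBA, FST and TGFBR3 share a large step between the groups, which sets them apart from the median gene. Their steps were close to each other (-2.05, -2.15 and -2.35). The distances among them therefore came mostly from the deviations within the groups given above, and they repeat that description.

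The genes nearest to INHBA were GRB14, an adaptor of receptor tyrosine kinases (distance 0.082), SPHK1, a sphingosine kinase gene (0.090), TOX2, an HMG-box gene (0.11), PHEROC (0.12) and BMP1, a metalloprotease gene (0.12). PHEROC ended under the lower quartile of its arrays, with a mean of 3.71 after maturation. After INHBA the genes nearest to FST were NCEH1, a cholesterol ester hydrolase gene, CTNNA2, an alpha catenin gene, TRAK1, a kinesin adaptor gene, and GRB14, at distances between 0.15 and 0.16. TGFBR3 had the neighbours CLEC2D, a lectin gene (0.19), GJA1, the gap junction gene connexin 43 (0.19), CPQ, a carboxypeptidase gene (0.23), SLC22A17 (0.23) and JUN, an AP-1 subunit gene (0.24). GRB14 stood among the 5 nearest of both INHBA and FST. TGFBR3 shared none of its 5 nearest genes with the other two.

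**Figure D3:**
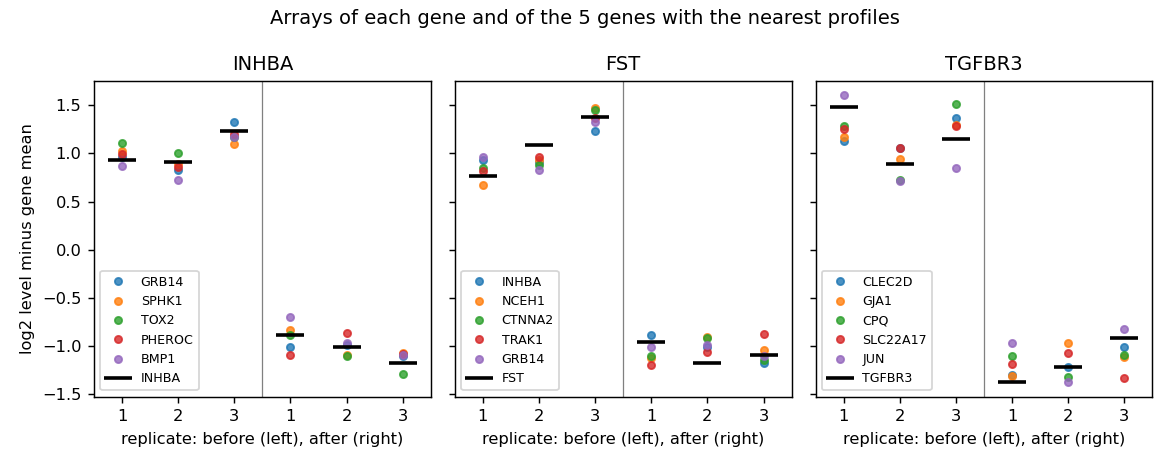
Log2 level minus the gene's own mean over the 6 arrays, for INHBA, FST and TGFBR3 (black bars) and the 5 named genes with the nearest profiles (coloured points), with arrays before maturation on the left and after it on the right of each panel. The neighbours follow the step between the groups, and they lie closer to INHBA (distances 0.082 to 0.12) than to TGFBR3 (0.19 to 0.24).

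INHBA and FST are themselves used as markers of cumulus and granulosa cells, so the other markers of these cells are given beside them. Of 22 such markers, without the 3 genes, 10 fell, 5 rose and 7 were not called, where 8.07% of all probes were called lower and 3.21% higher. The markers were listed with earlier results of these arrays known, so these counts are a description. Calls here and below rest on limma with a Benjamini-Hochberg adjusted p under 0.05 over all probes. SERPINE2, a protease inhibitor gene, fell by 2.92 (adjusted p = 8.94e-06), while HSD3B1, a gene of progesterone synthesis, rose by 3.95 (adjusted p = 1.49e-05) from a dim mean of 4.25. PTX3, SHAS2 and PTGS2 also rose from dim means (4.02, 3.84 and 4.03), and GSTA1 rose from a bright 9.64. The list's median difference was -0.48, and 0.28 on the ribosomal scale, where 7 fell and 10 rose. Without replicate 3 of the group before maturation, in which INHBA, FST and the marker mean were highest, this median was -0.33, and the differences of INHBA and FST were -1.95 and -2.001.

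The summed signal of the 22 cumulus and granulosa markers, on the linear scale, ran from 5855 to 7730 before maturation and from 3854 to 3980 after it. Bright genes weigh most in such a sum, among them GJA1, which fell from a log2 mean of 10.91 to 8.64, and GSTA1, which rose from 9.64 to 10.93. That of 19 oocyte markers ran from 34685 to 37080 and from 33433 to 34606. Among these 3 oocyte markers fell, led by KIT, a receptor of the oocyte (-1.22, adjusted p = 0.0011), and ZP3, a gene of the zona pellucida (-0.70, adjusted p = 0.0104), and 0 rose, against a background of 8.07% lower and 3.21% higher. On the ribosomal scale 16 of the 19 were called higher and 1 lower, and ZP3 turned to 0.058 and was not called. RMA gives no level of 0, so absent markers cannot be read from it. In a pool, fewer cells of a type and less RNA per cell cannot be told apart, and the part of the cumulus markers in the decrease of INHBA, FST and TGFBR3 was not tested.

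Calls among markers of other cell types are set beside the 11.3% of all probes called on the deposited scale. They made up 23.1% of the theca and stromal, 9.09% of the leukocyte and erythroid and 0% of the endothelial markers. On the ribosomal scale 12 of 13 theca and stromal, 7 of 7 endothelial and 11 of 11 leukocyte and erythroid markers were called higher, and 1 theca and stromal marker lower. Theca and stromal markers numbered 13, of which 2 were called higher and 1 lower, with ACTA2, the smooth muscle actin gene, at -1.93 (limma adjusted p = 5.85e-04) and POSTN, a matrix gene, at 1.20 (adjusted p = 0.0250). POSTN had a dim mean of 3.69 before maturation, and it was not called when replicate 1 or 3 of the matured group, or replicate 2 or 3 of the other group, was left out (adjusted p = 0.0544 to 0.105). The summed signal of the list lay between 587 and 739 before and between 582 and 600.1 after maturation. Of 7 endothelial markers 0 were called with limma, and 2, SOX17 and KDR, had an unadjusted p under 0.05. KDR, with a dim mean of 3.47 before maturation, differed by 0.23 and was called with trend and robust set (adjusted p = 0.0442). SOX17 differed by 0.51 (adjusted p = 0.0567), and was called with the replicate block (adjusted p = 0.0369), with a common median (adjusted p = 0.0336), on the ribosomal scale and without the dimmest 25% of probes (adjusted p = 0.0461). Among 11 leukocyte and erythroid markers CD3E was called higher, by 0.48 (adjusted p = 0.0418), and lost the call with cyclic loess (adjusted p = 0.0528) and without 5 of the 6 arrays taken singly. With the replicate block 3 theca and stromal, 1 endothelial and 2 leukocyte and erythroid markers were called higher. The summed endothelial signal lay between 391 and 419 before and between 400.0 and 469 after maturation, and the leukocyte and erythroid signal between 495 and 532 before and between 578 and 617 after it. LYZ was the brightest leukocyte and erythroid marker, with log2 means of 8.05 and 8.26. The lower quartile of the arrays lay between 4.27 and 4.30 before and between 4.33 and 4.45 after maturation, so a rise of dim probes is not read as cell content.

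The rest of the pathway was read from lists ordered by role, without the 3 genes. These lists were drawn up with earlier results of these arrays known, so their counts beside the background are a description. Of 137 listed genes 86 had a probe with that single name, and the others were not analysed here, among them the inhibin alpha gene INHA and the beta B subunit gene INHBB. A probe listed for both SMAD3 and SMAD2 was not named. Of the 86 genes 15 were called lower, 4 higher and 67 neither, so 22.1% were called where the background over all probes was 11.3%. The median difference of the 86 was 0.09, against 0.08 for all probes. With a common median for all arrays 15 fell and 13 rose, after a second quantile normalization 16 and 8, and on the ribosomal scale 12 and 67. With the replicate number as a block 17 fell and 10 rose. The count of genes that rose was 2 when any 1 of the matured arrays was left out, and 7 when replicate 1 of the other group was.

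The other ligand genes had small differences. Of 22 measured, 1 was called lower, 1 higher and 20 neither, with a median difference of 0.18 and a range from -0.69 to 0.53. The share called, 9.09%, was near the 11.3% of all probes. AMH, the anti-Müllerian hormone gene and a granulosa cell product, fell by 0.69 (from 5.10 ± 0.22 to 4.40 ± 0.09, SD, n = 3, limma adjusted p = 0.0102). AMH ended near the lower quartile of the matured arrays (4.33 to 4.45). It turned to 0.063 on the ribosomal scale and was not called without replicate 1 after maturation (adjusted p = 0.0536). GDF1 rose by 0.46 (adjusted p = 0.0184), and lost the call without any 1 of the arrays after maturation (adjusted p = 0.0522 to 0.0691). INHBE was the only other inhibin beta subunit gene measured. It was dim, with a mean of 4.15 before maturation, under the lower quartile of those arrays, and 4.46 after it. That difference of 0.32 did not pass the test (adjusted p = 0.0826), but was called with a common median (adjusted p = 0.0463) and on the ribosomal scale (1.07), where 21 of the 22 ligand genes were called higher.

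Secreted binding proteins held the decrease closest in role to that of FST. CHRDL1, a chordin-like antagonist of BMPs, had levels of 8.11, 7.93 and 8.26 before maturation and 5.20, 5.43 and 5.14 after it. The groups were far apart, and the gene fell by 2.84 (standard error 0.12, limma adjusted p = 8.47e-06). TWSG1, which binds BMPs together with chordin, fell by 1.75 (adjusted p = 0.0010), and FBN2, a fibrillin gene whose product anchors growth factor precursors in the matrix, rose by 1.19 (adjusted p = 0.00295). FBN2 lay under the lower quartile of the arrays before maturation, with a mean of 4.09. The other 12 of 15 did not pass the test, and the list's median was 0.27. FSTL4 and FSTL5, relatives of follistatin by name, had differences of -0.12 and -0.13, and on the ribosomal scale both turned and were called higher (0.64 and 0.63). On that scale 13 of the 15 genes were called higher and 2 lower.

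Of 5 proteases that process ligands or their antagonists 2 fell and 0 rose (background 8.07% and 3.21%), and on the ribosomal scale 1 fell and 2 rose. BMP1, which cleaves chordin and also procollagen, was among the nearest profiles of INHBA, and fell by 1.84 (standard error 0.15, limma adjusted p = 1.56e-04). PCSK6, a proprotein convertase gene, fell by 0.82 (adjusted p = 0.0111). PCSK6 was not called on the ribosomal scale (-0.062) or without replicate 1 after maturation (adjusted p = 0.0572). FURIN, the convertase best known for cleaving such precursors, had a difference of 0.10 (adjusted p = 0.709), and was called higher on the ribosomal scale (0.86). The difference turned to -0.0057 without replicate 1 after maturation and to -0.051 without replicate 3 before it.

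The activin receptor genes ACVR2A, ACVR2B and ACVR1B were not called lower on any of the scales tried. ACVR2B, a type II activin receptor gene, had levels of 7.42, 7.28 and 7.13 before maturation and 7.69, 7.59 and 7.89 after it. These arrays did not overlap, and 21.7% of all probes likewise had the arrays after maturation wholly above those before it. ACVR2B rose by 0.45 (standard error 0.12, limma adjusted p = 0.0456). The gene lost its call with the replicate number as a block (adjusted p = 0.0503), with trend and robust set (adjusted p = 0.0658) and without 5 of the 6 arrays taken singly, the exception being replicate 1 before maturation. ACVR2A, the other type II gene, had a difference of -0.16 (95% confidence interval -0.51 to 0.19, adjusted p = 0.510). It turned to 0.59 on the ribosomal scale, where it was called, and to 0.021 without replicate 3 before maturation. ACVR1B, the type I receptor gene of activin, had a difference of 0.45 (interval 0.12 to 0.77, adjusted p = 0.0830), and was called with a common median (adjusted p = 0.0481) and on the ribosomal scale.

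Receptors of related ligands moved both ways, and over all 12 receptor genes 2 were called higher, 1 lower and 9 neither, against 10 higher and 0 lower on the ribosomal scale. TGFBR1, the type I receptor gene of TGF-beta, fell by 0.91 (adjusted p = 0.0247), from levels of 7.79, 7.64 and 8.41 to 6.83, 7.04 and 7.24. TGFBR1 was not called on the ribosomal scale (-0.16) or without replicate 1 or 2 after maturation (adjusted p = 0.103 and 0.0887). BMPR1B, a type I BMP receptor gene, rose by 0.63 (adjusted p = 0.00471), from 10.15 ± 0.07 to 10.78 ± 0.11 (SD, n = 3). TGFBR2, the type II receptor gene of TGF-beta, had a difference of 0.44 (adjusted p = 0.114), and was called with the replicate block (adjusted p = 0.0319) and on the ribosomal scale (1.20).

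The other co-receptor genes showed no call on the deposited scale, where 11.3% of all probes were called. Of the 6 measured beside TGFBR3, ENG, BAMBI, RGMA, CD109, NRP1 and PMEPA1, 0 were called with limma and 0 had an unadjusted p under 0.05. Their differences ran from -0.30 for BAMBI to 0.27 for ENG, the latter encoding endoglin, the closest relative of betaglycan. PMEPA1, a membrane gene that restrains SMAD signalling, had the smallest adjusted p (0.21, adjusted p = 0.205). On the ribosomal scale all 6 were called higher, PMEPA1 at 0.97, BAMBI turned to 0.45 and NRP1 to 0.56. The difference between the co-receptor genes and TGFBR3 was not tested.

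SMAD4 and SMAD2, which carry the activin signal with SMAD3, fell on the deposited scale. SMAD4, the common partner, had levels of 9.81, 9.63 and 9.95 before maturation and 8.17, 8.28 and 8.61 after it. No arrays overlapped, and 14.4% of all probes likewise had the arrays after maturation wholly below those before it. SMAD4 fell by 1.44 (standard error 0.14, limma adjusted p = 4.50e-04), a call that held under all 4 scalings. SMAD2, which activin receptors phosphorylate, fell by 0.80 (adjusted p = 0.0105), from 10.61 ± 0.27 to 9.81 ± 0.14 (SD, n = 3). SMAD2 was not called on the ribosomal scale (-0.049) or without replicate 1 after maturation (adjusted p = 0.0556). SMAD6, an inhibitory SMAD of BMP signalling, fell by 0.75 (adjusted p = 0.00772) and turned to 0.0062 on the ribosomal scale. SMAD1 and SMAD5, which carry BMP signals, had differences of 0.14 and 0.14, and 4 of 7 SMAD genes did not pass the test. Lower calls made up 42.9% of the SMAD genes, where 8.07% of all probes were called lower. On the ribosomal scale SMAD1 and SMAD5 were among 4 called higher, and SMAD4 was the 1 called lower.

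Of 8 regulators of SMADs only SKIL was called on the deposited scale, and on the ribosomal scale SKIL was lower and the other 7 higher. The share called on the deposited scale, 12.5%, was near the 11.3% of all probes. SKIL encodes SnoN, a corepressor of SMADs whose gene is itself induced by activin and TGF-beta. Its levels were 7.12, 6.85 and 8.01 before maturation and 5.21, 5.19 and 5.39 after it, so replicate 3 stood high in the first group. SKIL fell by 2.06 (standard error 0.26, limma adjusted p = 0.00177), and without that array it fell by 1.72.

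Genes known as transcriptional targets of SMADs held the largest decreases of the 8 pathway lists. Of 11 measured, 5 fell and 0 rose (background 8.07% and 3.21%), with a median difference of -1.30 against 0.08 for all probes. The list was drawn up with earlier results of these arrays known, so this comparison is a description. ID2 and ID1, inhibitors of DNA binding induced by BMPs, fell by 3.99 (adjusted p = 7.06e-06) and fell by 1.58 (adjusted p = 0.0017) respectively. CYR61, a matrix signalling gene, fell by 3.63 (adjusted p = 1.49e-05), KLF10, a gene induced early by TGF-beta, by 1.30 (adjusted p = 0.00324) and TGFBI, a matrix protein gene, by 1.19 (adjusted p = 7.71e-04). CTGF and BHLHE40 had differences of -1.44 and -1.38 that did not pass the test (adjusted p = 0.0542 and 0.114). With the replicate block both were called lower (adjusted p = 0.00285 and 0.0407). They were also called lower on the ribosomal scale (-0.68 and -0.63), where the call does not reflect their wide spread. CTGF was also called when the dimmest 25% were dropped (adjusted p = 0.0318), under a trended robust fit (adjusted p = 0.0459) and without replicate 1 after maturation (adjusted p = 0.0220). BHLHE40 was called without replicate 1 before maturation, at -0.69 (adjusted p = 0.0279). CDKN1A, a cell cycle inhibitor gene, had a difference of 0.56 (adjusted p = 0.0872), and was called higher after a second quantile normalization (adjusted p = 0.0363), on the ribosomal scale (1.31) and without replicate 1 before maturation (adjusted p = 0.0354). On the ribosomal scale 7 of the 11 targets were called lower and 4 higher. These genes answer to many signals besides activin, and the 22 cumulus and granulosa markers, of which 10 fell, moved beside them. The part of those cells in these decreases was not tested.

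**Figure D4:**
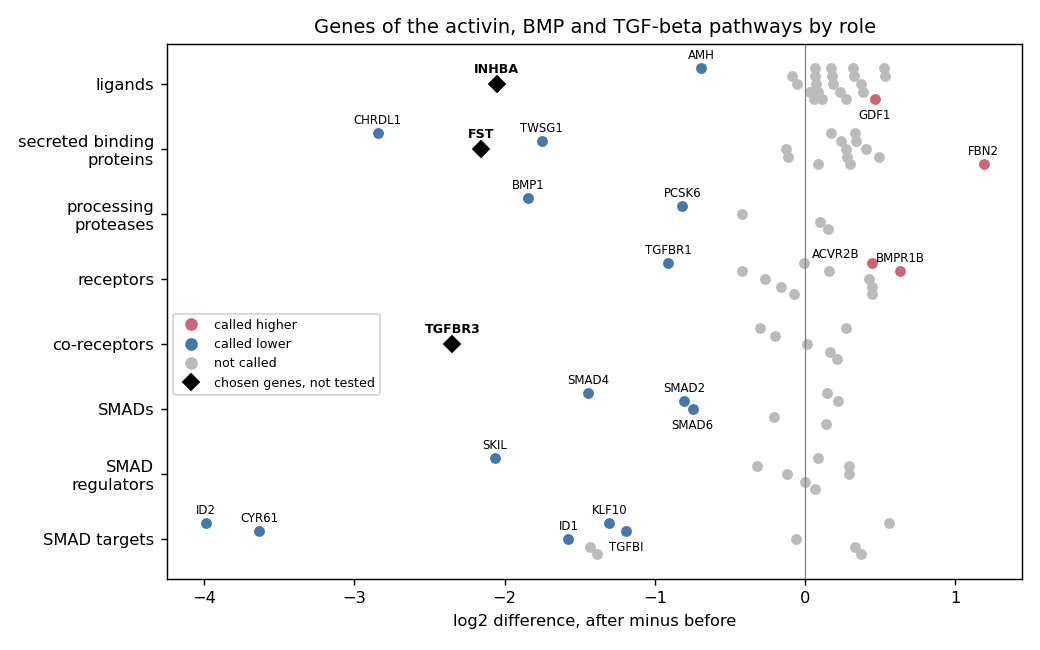
Log2 difference (after minus before maturation) of 86 genes of the activin, BMP and TGF-beta pathways, in rows by role, coloured by the limma call at an adjusted p under 0.05 and labelled where called, with INHBA, FST and TGFBR3 as black diamonds that were not tested. The 3 genes lie at -2.05, -2.15 and -2.35, ligand and co-receptor genes beside them lie between -0.69 and 0.53, and SMAD targets reach -3.99.

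The arrays as a whole were alike within a group, with correlations across probes of 0.994 to 0.995 after and 0.989 to 0.993 before maturation. Between the groups they were 0.965 to 0.983, and genes are not independent replicates. The labels call the pools biological replicates and do not say whether they came from separate animals, so p-values reflect only how far these pools differ. The number of arrays limits the precision. For a single gene, exactly permuting 3 against 3 arrays gives a two-sided p of 0.1 at best.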

How the data were processed

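The deposited table holds log2 expression values that the authors made with RMA, per the submitters' processing notes, and their range and the method point to a log2 scale. The version and settings of RMA: not given in the sources used here. Values were used as deposited. Of 12258 probes 10922 had 1 gene symbol, 268 several and 1068 none listed, and names were updated by gene identifier to RefSeq's Sscrofa11.1 table. The brightest probe stood for a gene with several.

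All probes were fitted with limma 3.58.1 in R 4.3.3 (lmFit, eBayes, two-sided, Benjamini-Hochberg over 12258 probes, 0.05), after minus before maturation. On simulated data for this comparison it called 40 of 40 probes at a log2 change of -2, 9 of 40 at 0.5, and 7 of 12058 unchanged ones. Same-numbered arrays deviated together (correlations of 0.283, 0.120 and 0.142), which pairs them as a hint from the data. The fit without the block was kept.

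The genes and lists were chosen with earlier results of these data known. Named were INHBA, FST and TGFBR3, called pathway genes (the smallest p of a list without calls), 10 fixed receptor, SMAD and subunit genes where measured, the leading markers, and the 5 nearest profiles. INHBE, FURIN, FSTL4, FSTL5, SMAD1, SMAD5, CTGF, BHLHE40, CDKN1A, BAMBI, ENG, KDR, GSTA1, PTX3, SHAS2, PTGS2, LYZ and the remaining co-receptor genes were added after their values were seen. Alternatives were the replicate block, 4 scalings, a filter on dim probes, trend and robust set, 1 probe per gene, and leaving out each array. Python 3.11.15, pandas 2.3.3 and matplotlib 3.10.9 were used.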

Additional observations from a re-analysis of the deposited data

How the results depend on the processing

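INHBA, FST and TGFBR3 kept their direction under all 14 alternatives, and moved by more than the spread between replicates in 1, the scale with ribosomal protein genes level (-1.30, -1.40 and -1.59). Most of these alternatives could not have turned them. The replicate block, the filter on dim probes, trend and robust set, and 1 probe per gene leave the difference unchanged. The groups lay at least 1.72 apart, so leaving out an array could not reverse it either. Leaving out single arrays gave -2.12 to -1.95 for INHBA, -2.31 to -2.001 for FST and -2.49 to -2.19 for TGFBR3. The count of pathway genes called lower (15) ran from 12 to 17. The count called higher (4) was 10 with the replicate block, 8 after a second quantile normalization, 13 with a common median, 67 on the ribosomal scale, and 2 to 7 without single arrays. By construction the ribosomal scale adds one amount to every difference, the amount by which the ribosomal median was lower after maturation. It turned AMH (0.063), SMAD6 (0.0062), ACVR2A (0.59), ZP3 (0.058), FSTL4 (0.64), FSTL5 (0.63), BAMBI (0.45), NRP1 (0.56) and the cumulus and granulosa marker median (0.28). ACVR2A also turned without replicate 3 before maturation (0.021), and lay between -0.27 and 0.021 over the single arrays left out. Small differences of either sign were seen for CD109 (-0.093 under cyclic loess, -0.071 under quantile normalization, and -0.069 to 0.098 without single arrays), FURIN (-0.051 to 0.26), FSTL5 (-0.25 to 0.060) and NRP1 (-0.42 to 0.070) without single arrays. Over all probes the ribosomal scale gave 10712 higher and 306 lower calls, the replicate block 621 and 1226, cyclic loess 254 and 1055 and a common median 915 and 891, where the fit on the deposited scale gave 394 and 989. Of the 19 called pathway genes 13 to 19 kept the call without single arrays, 18 with the replicate block and 14 on the ribosomal scale. The replicate block ended the call of ACVR2B and added those of TGFBR2, CTGF and BHLHE40 among the pathway genes named in the text. Signal over background was not assessed, which limits genes with a dim group such as TGFBR3 after maturation.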
